A study of Bos taurus with 30 samples.

Results

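The primitive streak and early mesoderm factors described here are 10 genes, TBXT, MIXL1, EOMES, GSC, WNT3, EVX1, LHX1, FOXF1, FOXF2 and SP5, chosen by name and matched by Entrez gene ID among the 35092 genes of the count table. Their RNA was measured in day 15 Holstein embryos, either produced in vitro (IVP) or conceived in vivo (IVV). IVP embryos came from slaughterhouse oocytes that were matured and fertilized in vitro, kept in serum-free culture and placed in recipient cows on day 7, whereas IVV embryos came from superovulated and inseminated cows, and semen of the same bull was used for both. A pair of cows served each procedure, so that embryos of a group share dams, uteri or both, and what separates the procedures cannot be told apart from what separates these cows. Embryos without a visible disc had been discarded, by the paper's account a larger share of the IVP than of the IVV embryos. The paper also reports that IVP embryos were shorter, and the part of either in the values was not tested. The embryonic disc (ED), which holds the cells that form the fetus, gave 7 IVP and 9 IVV libraries, and the surrounding extra-embryonic membranes (EEM) 6 and 8, with both tissues from 13 embryos (5 IVP and 8 IVV). Libraries held between 48713218 and 63037371 counts on genes.

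In the mammalian embryo the streak forms at the posterior side of the disc, where epiblast cells leave the epithelium and become mesoderm and endoderm. WNT and NODAL signals start it. Brachyury (TBXT), EOMES and MIXL1 are transcription factors of the streak, GSC and LHX1 mark its anterior end, EVX1 its posterior end, SP5 is a target of WNT signaling, and FOXF1 and FOXF2 are expressed in the mesoderm that leaves it for the extra-embryonic and lateral regions.

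Levels are given in CPM, the counts of a gene relative to the size of its library, scaled by the TMM method over all 30 libraries, and they were not compared between genes because gene lengths were not at hand. POU5F1 and NANOG, markers of the epiblast, were found in all 16 discs, between 16.4 and 228 CPM for POU5F1 and between 2.71 and 44 CPM for NANOG, and NANOG had at most 10 counts in any EEM library. SOX2 and UTF1, also epiblast genes, had 0 counts in every library; the model of SOX2 overlaps LOC100849009 in RefSeq, and reads shared by overlapping genes may go uncounted. None of the 10 factors overlaps another gene model there. The discs carried much RNA of trophoblast genes: the 15 markers summed to 13500 to 75500 CPM in the ED and 36800 to 87800 CPM in the EEM. A library of bulk tissue cannot tell fewer streak cells from less RNA per cell. The ED and EEM of an embryo deviated together from their groups in 12 of 13 embryos, but the ED of IVPF13 went against its own EEM (r = -0.19 across genes) and with the EEM of IVPF14 (r = 0.38), so results over both tissues are also given without IVPF13.

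All 10 factors had fewer transcripts in the IVP discs on average, and 7 of them were lower past the test: TBXT, MIXL1, EOMES, WNT3, EVX1, FOXF1 and FOXF2 (edgeR quasi-likelihood test, adjusted p under 0.05). Among all genes tested in the ED, 4.95% were called lower in IVP and 1.4% higher. The median log2 fold change was -2.44 over the 10 factors and -0.01 over all genes. GSC, SP5 and LHX1 did not pass. For 3 factors, MIXL1, WNT3 and FOXF2, every IVP disc lay below every IVV disc, which held for 0.718% of all genes tested. FOXF2 passed the filter on low counts through the IVV discs alone, so its call and its place here add no support.

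**Figure D1:**
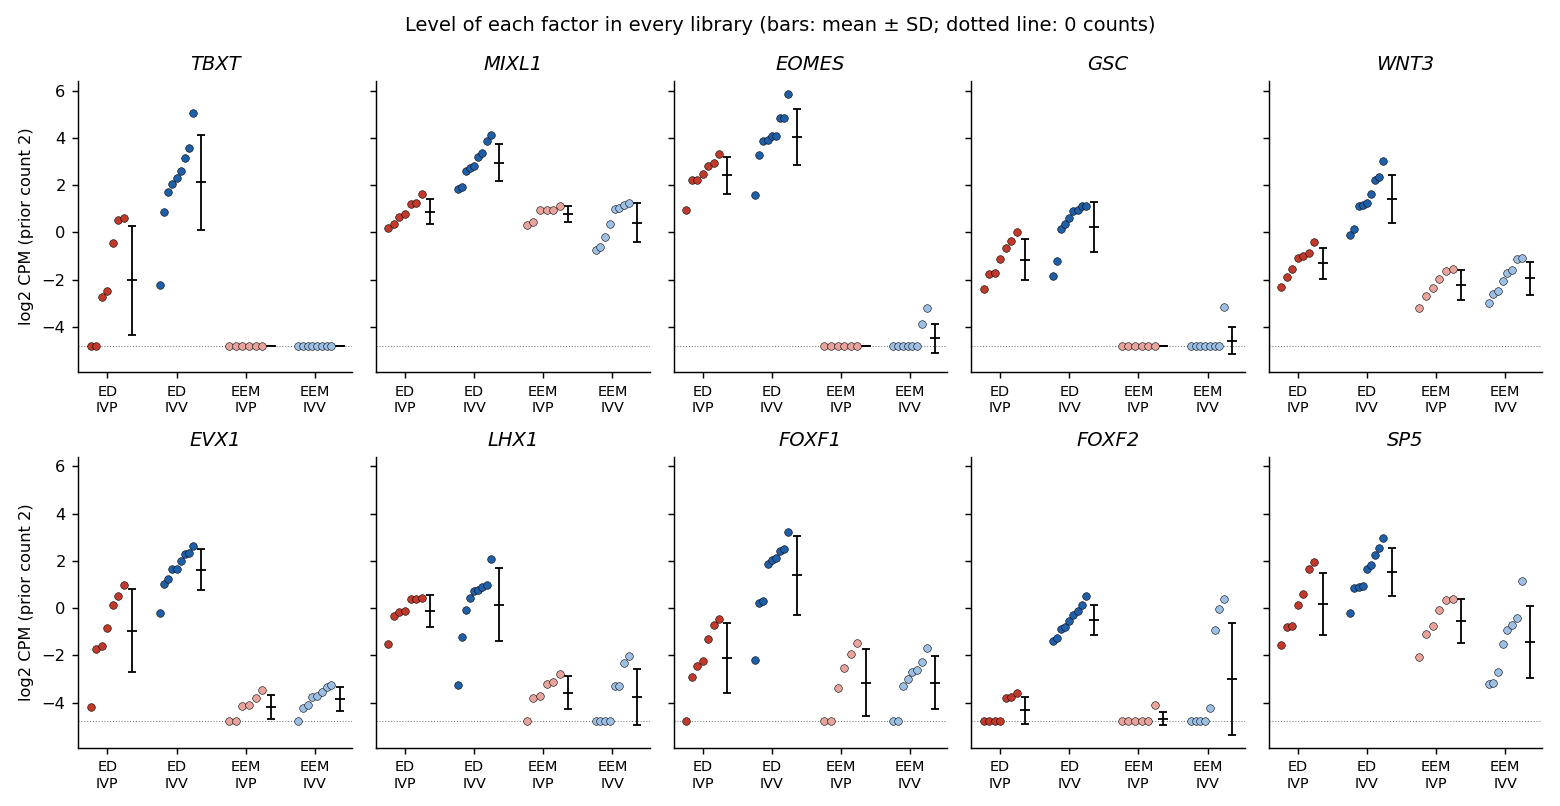
Level of each of the 10 factors in each library, as log2 CPM with a prior count of 2, for the ED (dark) and EEM (pale) of IVP (red) and IVV (blue) embryos. Points are embryos, bars give the mean ± SD, and the dotted line marks 0 counts; TBXT lies on this line in all 14 EEM libraries, and the IVP discs of MIXL1, WNT3 and FOXF2 lie below all 9 IVV discs.

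WNT3 (Entrez 540753), the secreted ligand of the set, was at 0.167 CPM in the lowest, 0.43 in the median and 0.718 in the highest IVP disc, and at 0.895, 2.3 and 8.01 CPM in the IVV discs. The groups did not overlap, although the highest IVP disc (IVP14) and the lowest IVV disc (VE4) were close. Its log2 fold change was -3.06 (SE 0.47, adjusted p = 0.000257), and it stayed between -3.22 and -2.64 when any 1 embryo was left out.

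TBXT (Entrez 524443) had the largest SD of log2 CPM of the 10 factors in the discs of each group (2.3 in IVP and 2.02 in IVV). Its counts in the 7 IVP discs were 0, 0, 5, 9, 38, 77 and 88, so that IVPF13 and IVPF15 showed no transcript at this depth, which allows up to 3 counts in a library. The IVV discs ranged from 10 counts in VE4 to 2136 counts in VE5, with a median of 302. In CPM, the IVP discs reached 1.49 and the IVV discs ran from 0.175 to 32.8; 8 of 9 IVV discs were above all IVP discs and VE4 was among the IVP values. The log2 fold change was -3.92 (SE 0.90, adjusted p = 0.00901). It ran from -4.62 to -3.07 when 1 embryo was left out, with the smallest size without VE5, and the call was kept in all 16 such fits.

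MIXL1 (Entrez 614854) lay within a narrow range in the IVP discs, from 1.12 to 3.08 CPM with a median of 1.7, and between 3.53 and 17.2 CPM with a median of 6.96 in the IVV discs. The log2 fold change was -2.21 (SE 0.36, adjusted p = 0.000473). EOMES (Entrez 511947) was found in every disc, with 101, 306 and 628 counts in the lowest, median and highest IVP disc and 168, 990 and 3733 counts in the IVV discs (medians of 5.51 and 16.7 CPM). Here VE4, the lowest IVV disc, and VE24 (578 counts) fell within the IVP range, and the log2 fold change was -1.87 (SE 0.43, adjusted p = 0.00974). With the embryos that gave both tissues alone, the call for EOMES was lost (log2 fold change -1.79, adjusted p = 0.0506).

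GSC (Entrez 514862) and LHX1 (Entrez 786041), the genes of the anterior streak, did not pass the threshold. GSC was at 0.153 to 0.985 CPM (median 0.417) in the IVP discs and at 0.246 to 2.15 CPM (median 1.47) in the IVV discs, with VE4 and VE24 inside the IVP range. Its log2 fold change of -1.50 (SE 0.48) missed the threshold (adjusted p = 0.0643), whereas a two-sided exact permutation test of its log2 CPM without a surrogate variable gave an unadjusted p of 0.017 and DESeq2 called it (adjusted p = 0.0137). The call was also made without IVP11, IVPF15, VE24 or VE4. LHX1 overlapped broadly, from 0.315 to 1.29 CPM (median 0.883) in IVP and from 0.0702 to 4.16 CPM (median 1.63) in IVV discs. The log2 fold change of LHX1 was -0.46 (adjusted p = 0.738), with a 95% interval from -1.48 to 0.56 that spans 0.

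EVX1 (Entrez 540239), of the posterior streak, had 1 count in the disc of IVPF14 and up to 112 counts in the other IVP discs, that is 0.0193 to 1.94 CPM with a median of 0.519. The IVV discs held 0.825 to 6.15 CPM with a median of 3.10, and 8 of 9 were above all IVP discs. The log2 fold change was -2.66 (SE 0.53, adjusted p = 0.00336). For SP5 (Entrez 512467), IVP discs at 0.305 to 3.85 CPM (median 1.06) overlapped IVV discs at 0.825 to 7.84 CPM (median 3.11), and IVPF10 and IVPF15 held 3.11 and 3.85 CPM. Its log2 fold change of -1.51 (SE 0.50) missed the threshold (adjusted p = 0.0737), but it was called with DESeq2 (adjusted p = 0.0127) and without IVPF15, VE24, VE26 or VE4.

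FOXF2 (Entrez 529218), which passed the filter on low counts through the IVV discs, had 0 counts in 4 IVP discs and 2, 2 and 3 counts in the others, against 17 to 90 counts (median 43) in the IVV discs. Summed over libraries and scaled to their size, these are 403 against 7 counts, a ratio of 40.7 with an exact interval of 19.6 to 102 that covers counting error only. The fitted log2 fold change was -5.40 (SE 0.61, adjusted p = 8.93e-06). With at most 3 counts in each IVP disc, its direction was set by the filter, and the test supports nothing beyond these counts. FOXF1 (Entrez 524813) ranged from 0 to 0.691 CPM (median 0.175) in the IVP discs and from 0.182 to 9.23 CPM (median 4.10) in the IVV discs. Here the exception was VE19, whose 9 counts lay among the IVP values, while VE4 with 206 counts was above all IVP discs and below the IVV median. The log2 fold change of FOXF1 was -3.75 (SE 0.68, adjusted p = 0.00154).

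Single IVV discs set the ends of these ranges. VE4 was the lowest IVV disc for 8 of the 10 factors, the exceptions being FOXF1 and FOXF2, for which VE19 was lowest. VE5 was the highest IVV disc for 7 factors. All 10 factors were above 3 counts in each IVV disc, and 7 to 9 of them in the IVP discs. Each of the 7 calls was kept when any 1 embryo was left out.

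Of the 5 epiblast markers tested 1 was lower in the IVP discs, with a median of -0.28 over the list. This was POU5F1, with a median of 29.3 CPM in them and of 68.8 CPM in the IVV discs and a log2 fold change of -1.72 (SE 0.36, adjusted p = 0.00479), and NANOG was at -1.34 (SE 0.41, adjusted p = 0.0517). SALL4 was at -0.28 (adjusted p = 0.504) and DNMT3B at -0.22 (adjusted p = 0.796). The 7 epiblast markers together summed to 182 to 468 CPM in the IVP discs and 158 to 842 CPM in the IVV discs, with VE4 lowest and VE5 highest among the latter. Most of this sum was DNMT3B, at a mean of 189 CPM in the IVP and 200 CPM in the IVV discs. In the EEM the sum was 82.4 to 189 CPM in IVP and 68.2 to 124 CPM in IVV, so it is not particular to the disc. When the mean log2 CPM of POU5F1 and NANOG was added to the model, a choice made after the values had been seen, 3 factors remained lower: FOXF2 at -4.97 (SE 0.63, adjusted p = 9.64e-05), FOXF1 at -3.45 (SE 0.79, adjusted p = 0.0248) and WNT3 at -1.48 (SE 0.35, adjusted p = 0.0269). In this model 1.17% of all genes were called lower. The direction of FOXF2 was again set by the filter, with at most 3 counts in each IVP disc, so its call supports nothing further.

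The fold change of WNT3 was nearer 0 than in the model without this covariate, as were those of the next 4 factors. MIXL1 was at -1.13 (SE 0.32, adjusted p = 0.0732), EVX1 at -1.54 (SE 0.61, adjusted p = 0.284) and TBXT at -1.21 (SE 0.88, adjusted p = 0.699). EOMES was at 0.00 (SE 0.24, adjusted p = 1.00). GSC was at -0.24 and SP5 at 0.02, whereas LHX1 went from -0.46 to 1.04 (SE 0.64, adjusted p = 0.608). The covariate itself was lower in the IVP discs, so that its level and the procedure cannot be fully told apart in this model.

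**Figure D2:**
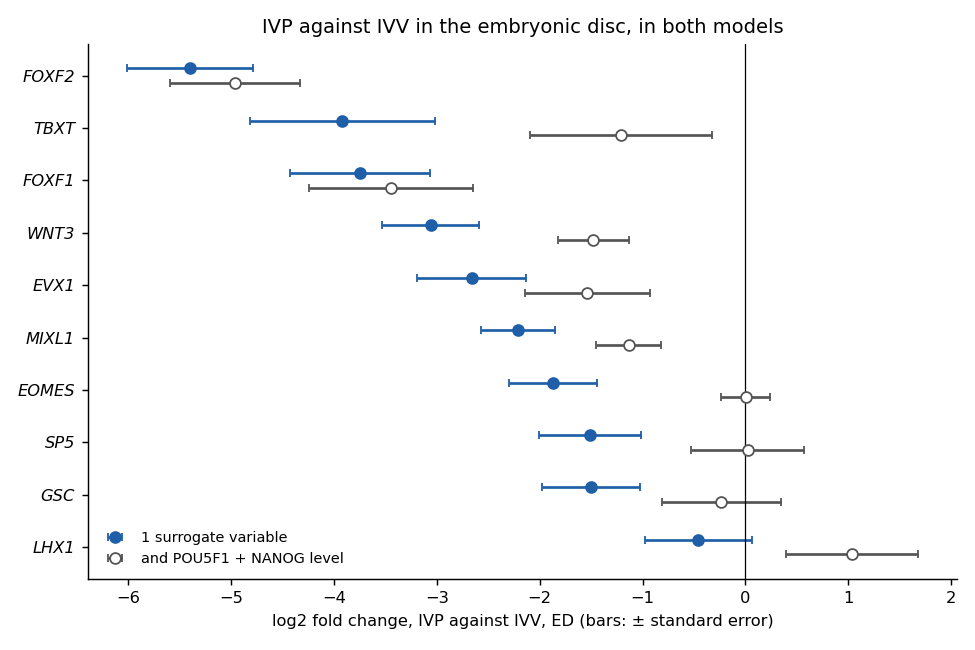
Log2 fold change of the 10 factors between the IVP and IVV discs with 1 surrogate variable (blue) and with the level of POU5F1 and NANOG added (open), with bars of ± 1 standard error. FOXF2 and FOXF1 stay near -5 and -3.5 in both models, whereas EOMES moves from -1.87 to 0.00.

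**Figure D3:**
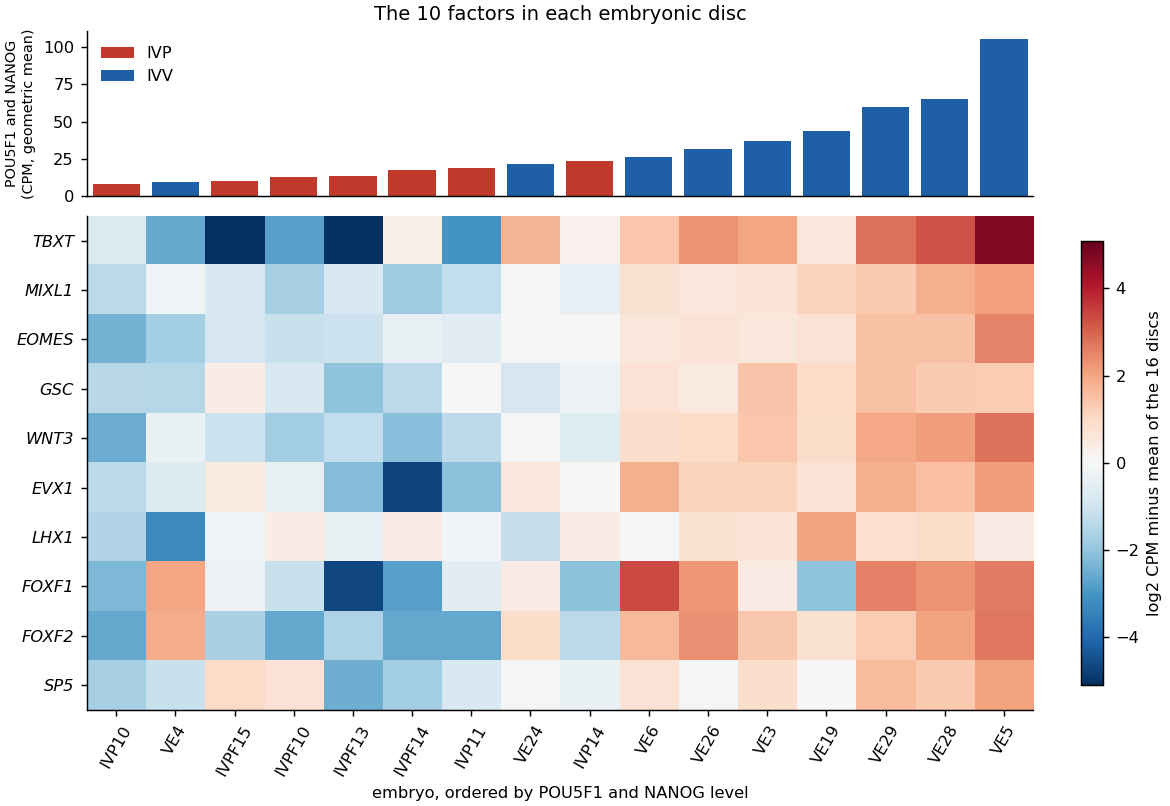
The 16 discs ordered by the geometric mean of POU5F1 and NANOG in CPM (bars, IVP red and IVV blue), above a colour map of the log2 CPM of each factor minus its mean over the 16 discs (red higher, blue lower). VE4 lies among the IVP discs on this order and is blue for most factors but red for FOXF1 and FOXF2.

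XIST, the RNA of the inactive X chromosome, was over 10 CPM in 7 of the 9 IVV discs and in none of the 7 IVP discs. The sex of single embryos is not in the labels, and no IVP disc exceeded 0.319 CPM of XIST. The IVV embryos with little XIST were VE3 and VE5. With XIST as a covariate the same 7 factors were called lower, with log2 fold changes from -2.62 for EOMES to -5.58 for FOXF2. Only VE3 and VE5 part the level of XIST from the procedure, so that sex and procedure cannot be fully told apart in this model. Titles of the samples end in A or C, a letter that the labels do not explain; within letter A (2 against 2 discs) all 10 factors were lower in IVP on average, and within letter C (5 against 7) 9 of 10 were, with LHX1 at a difference of 0.01 on the log2 scale. Markers of maternal blood summed to 2.85 to 5.65 CPM in the IVP and 2.97 to 12.9 CPM in the IVV discs, and 1 of 2 tested, ITGB2, was lower in IVP (-1.73, adjusted p = 0.0184). The other, CD14, was at 0.99 (adjusted p = 0.0705), and the haemoglobin genes had at most 21 counts in any disc. Uterine markers summed to a median of 28.8 CPM (12.4 to 36.4) in the IVP and 14.6 CPM (10.8 to 20.6) in the IVV discs, and 1 of 6, MUC1, was higher in IVP (1.10, adjusted p = 0.0162), while SERPINA14 had at most 2 counts in any disc. The part of either in the values of the factors was not tested.

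In the EEM most of the factors were near or at 0. TBXT had 0 counts in all 14 EEM libraries, EOMES and GSC had 0 counts in all 6 IVP libraries and at most 4 in the IVV libraries, and EVX1 had at most 3 counts in any. LHX1 reached 11 and FOXF1 15 counts. MIXL1, WNT3 and SP5 had enough counts to be tested, and none of the 3 was called between IVP and IVV, against 3.81% of all genes in either direction. MIXL1 was at 1.20 to 2.14 CPM in the IVP and 0.563 to 2.32 CPM in the IVV libraries, with a log2 fold change of 0.21 and a 95% interval of -0.45 to 0.87 (adjusted p = 0.959). WNT3 was at 0.0725 to 0.306 CPM and 0.0911 to 0.441 CPM, with -0.25 and an interval of -1.08 to 0.59 (adjusted p = 0.963). SP5 was at 0.204 to 1.26 CPM in IVP and 0.0716 to 2.18 CPM in IVV libraries, with 1.24 and an interval of 0.33 to 2.14 (adjusted p = 0.167).

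FOXF2 differed between single embryos in the EEM. It had 26 counts in VE4, 52 in VE26 and 66 in VE5, and at most 1 count in each of the other 11 EEM libraries, IVP and IVV. The filter on low counts removed it from the test. Without that filter it was called lower in IVP (log2 fold change -5.03, SE 1.37, adjusted p = 0.0221), as were 1.97% of the genes tested then, but a two-sided exact permutation test gave p = 0.167.

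The ED was compared with the EEM of the same embryo to see how far each factor belonged to the disc. All 10 were higher in the ED (edgeR with embryo as a block, 26 libraries), against 14.4% of all genes tested, and all 10 also without IVPF13. In the EEM 7 of the 10, the exceptions being MIXL1, WNT3 and SP5, had too few counts to pass the filter there and entered this test through the disc libraries, so that their direction was set by the filter and the count supports nothing further. This test takes both procedures together. In the 5 IVP embryos alone the mean ED minus EEM difference on the log2 scale was 0.16 for MIXL1 (3 embryos higher in the ED), 0.20 for FOXF1 (3), 0.25 for SP5 (2) and 0.31 for FOXF2 (2), and it was between 0.87 and 7.23 for the other factors. FOXF1 had 0 counts in the ED and 15 in the EEM of IVPF13, a difference of -3.32 log2 units, and without that embryo its mean was 1.07 ± 1.36 (SD, n = 4). Where a tissue had 0 counts, the size of these differences depends on the prior count of 2. Without IVPF13 the means were 0.16 for MIXL1, 0.43 for SP5 and 0.30 for FOXF2, and between 0.92 and 7.28 for the other factors. FOXF2 had at most 3 counts in each IVP disc and at most 1 in each IVP EEM library, so its difference cannot be read. EOMES and GSC were higher in the ED of every one of the 13 embryos, as were 5.34% of the genes tested; TBXT was so in 12, with 0 counts in both tissues of IVPF13. Taking 3 counts as the limit in an EEM library at 0, TBXT in the IVV embryos with both tissues was from at least 3.12-fold (VE4) to at least 562-fold (VE5) higher in the ED. EOMES in the EEM came to 6 counts in all, 4 in VE26 and 2 in VE24. FOXF2 had the largest adjusted p of the 10 (log2 difference 2.64, SE 0.79, adjusted p = 0.0223), and its call was lost without the block (adjusted p = 0.352).

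MIXL1 and WNT3 were present in the EEM too, so the effect of procedure could be set between tissues. In the IVV embryos the ED was above the EEM by 2.55 ± 0.99 log2 units for MIXL1 and by 3.40 ± 0.92 for WNT3 (SD, n = 8), and in all 8 embryos. In the IVP embryos the same differences were 0.16 ± 0.39 and 0.87 ± 1.26 (SD, n = 5), and 0.16 ± 0.45 and 0.92 ± 1.45 without IVPF13 (SD, n = 4). The interaction of tissue and procedure was -2.45 for MIXL1 (SE 0.44, adjusted p = 0.00744) and -2.69 for WNT3 (SE 0.62, adjusted p = 0.042), a call made for 0.918% of all genes in this direction. Without IVPF13, MIXL1 was kept (adjusted p = 0.0182) and WNT3 was not (adjusted p = 0.0949). With 1 embryo left out in turn MIXL1 was called in all 13 fits and WNT3 in 4, those without IVP14, VE19, VE24 or VE4 (adjusted p 0.0119 to 0.115 over the 13).

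FOXF1 and SP5 were large but uncertain in this test. FOXF1, with 0 to 15 counts in the EEM libraries, had an interaction of -4.48 (SE 1.22, adjusted p = 0.0847) and SP5 of -2.79 (SE 0.79, adjusted p = 0.0974). Without IVPF13 these were -3.58 (adjusted p = 0.19) and -2.62 (adjusted p = 0.19). FOXF1 was called in 5 of 6 other settings (adjusted p 0.0101 to 0.0891, the value of -4.42 to -4.61) and SP5 in 2 of 6 (0.01 to 0.25). With 1 embryo left out in turn, each was called in 1 of 13 fits (adjusted p 0.0333 to 0.221 for FOXF1 and 0.018 to 0.239 for SP5). No interaction is given for the 6 other factors, which had at most 3 counts in 8 or more of the 14 EEM libraries.

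**Figure D4:**
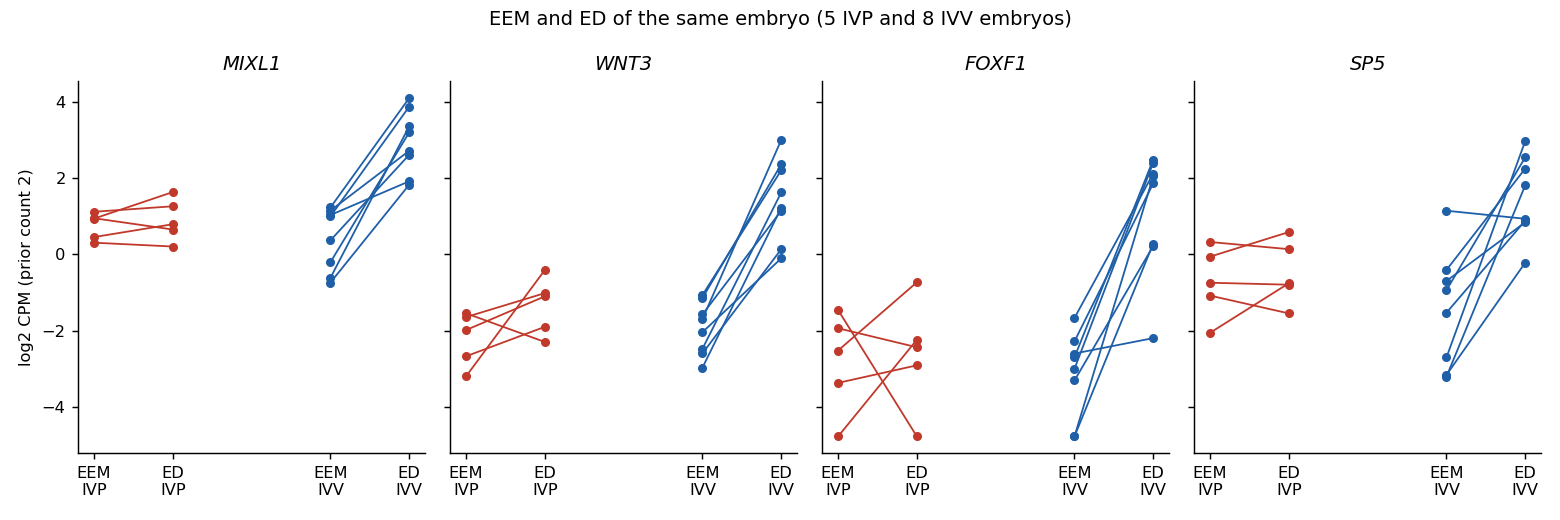
MIXL1, WNT3, FOXF1 and SP5 in the EEM and ED of the same embryo, as log2 CPM with a prior count of 2, for 5 IVP (red) and 8 IVV (blue) embryos, with a line per embryo. For MIXL1 the IVP lines are nearly flat (mean difference 0.16) and the IVV lines rise (mean difference 2.55).

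Whether the factors varied together with TBXT was examined within each group of discs, in log2 CPM, with two-sided exact permutation tests over 18 relations. In the 9 IVV discs all 9 other factors had a positive Pearson r with TBXT, and 5 passed after adjustment: EOMES (r = 0.94, p = 0.000885, adjusted p = 0.00868), SP5 (r = 0.89, p = 0.000965, adjusted p = 0.00868), EVX1 (r = 0.89, p = 0.00256, adjusted p = 0.0115), WNT3 (r = 0.85, p = 0.00231, adjusted p = 0.0115) and MIXL1 (r = 0.76, p = 0.0134, adjusted p = 0.0481). Spearman's rho was 0.77, 0.80, 0.75, 0.92 and 0.72 for these genes, and it passed the adjusted exact permutation test for WNT3 (p = 0.00131, adjusted p = 0.0236). Without VE4 and VE5, the discs farthest from the median of TBXT, r fell to 0.62, 0.67, 0.52, 0.66 and 0.41, and none had an exact permutation p under 0.05 in the remaining 7 discs. The passing of the test thus rests on these embryos; leaving them out also narrows the range of TBXT and the number of discs, and r stayed positive for all 5.

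FOXF1 and FOXF2 had an r with TBXT of 0.27 and 0.36, with VE4 lowest in TBXT but not in either of these, and of 0.65 and 0.62 without VE4 and VE5, within the range of 0.41 to 0.67 of the factors that had passed. GSC and LHX1 went from 0.74 and 0.63 to 0.32 and -0.10 without these 2 discs. In the 7 IVP discs r ran from -0.33 for WNT3 to 0.14 for EOMES, and no relation passed. TBXT had a median of 9 counts there and FOXF2 at most 3, so these discs cannot show whether the relations differ from those in the IVV discs.

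**Figure D5:**
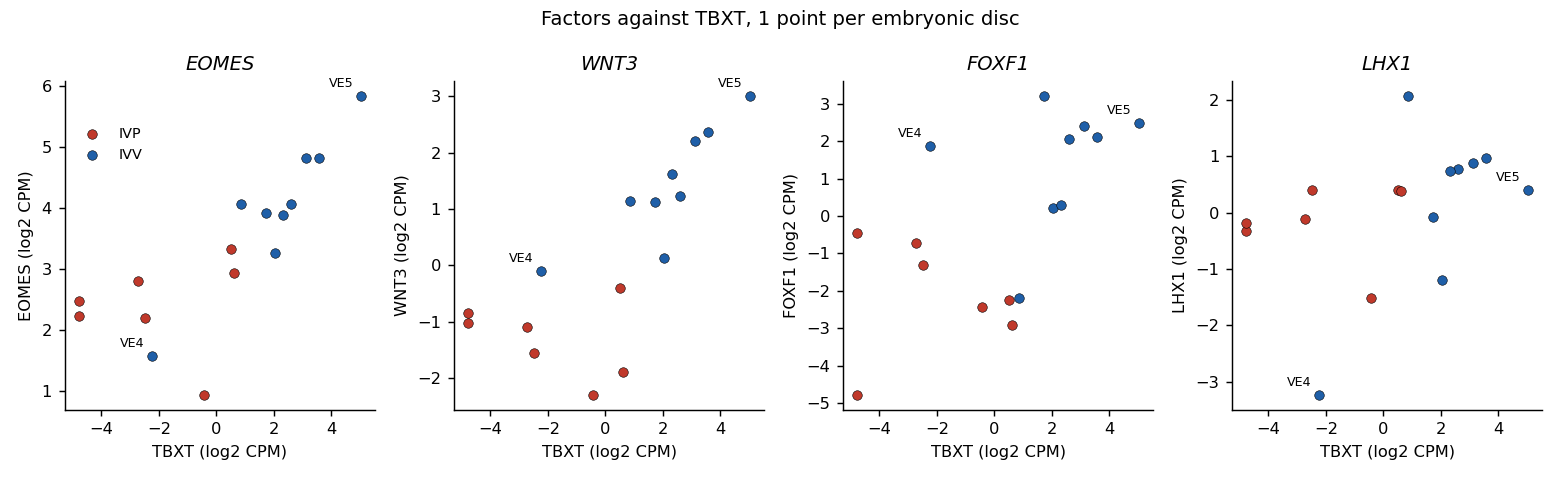
EOMES, WNT3, FOXF1 and LHX1 against TBXT, all in log2 CPM with a prior count of 2, with a point per disc (IVP red, IVV blue). VE4 and VE5 set the ends of the IVV range for TBXT; r in the IVV discs is 0.94 for EOMES, 0.85 for WNT3, 0.27 for FOXF1 and 0.63 for LHX1.

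The genes whose levels ran closest to a factor over the discs were found from the mean of the Pearson r within the 9 IVV and within the 7 IVP discs, as a description over libraries that share depth and cell makeup. For TBXT these were ZNF35 (mean r 0.88), BRINP1 (0.87), SASH3 (0.86), RSPO4 (0.85) and TTC12 (0.84). For EOMES they were RTN4RL2 and IGSF9 (both 0.97), CACNA1A, IGSF1 and SYT11 (each 0.96). For FOXF1 they were APCDD1 (0.90), ETS1 (0.89), TINAGL1 (0.88), SLC2A6 and MTCL3 (both 0.84).

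Other genes of the pathway were counted by role, and the lists were not tested against each other. Of the signals that induce the streak, 3 of 9 tested were lower in IVP discs and none higher: BMP4 (log2 fold change -1.74, SE 0.27, adjusted p = 0.000241), GDF1 and WNT3A. NODAL, the chief inducer of mesendoderm, was at 6.42 ± 4.84 CPM in the IVP and 6.12 ± 3.48 CPM in the IVV discs (SD, n = 7 and 9). In the list of nascent mesoderm, 9 of 16 were lower and 1 was higher, with a median of -1.67. APLNR, a receptor of migrating mesoderm, was at -6.58 (SE 0.76, adjusted p = 1.01e-05), KDR, a receptor of blood and vessel precursors, at -5.10 (SE 0.63, adjusted p = 2.38e-05), MESP2 at -4.45 and TBX6 at -2.03. KDR fell from a mean of 13.5 CPM in the IVV discs to 0.412 CPM in the IVP discs.

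Readouts of WNT and NODAL signaling had 4 of 12 lower, namely LEF1 (-3.57, SE 0.60, adjusted p = 0.000716), NKD1, NOTUM and SMAD7. None of the 11 axial mesendoderm genes tested was called in either direction in the ED (median -1.04); the smallest adjusted p was that of FOXJ1 (0.0509). Among mesenchyme markers 4 of 7 were lower, with PDGFRB at -3.45 (SE 0.51, adjusted p = 0.00017). Of the trophoblast markers 1 of 15 and of the hypoblast markers 1 of 10 were lower, none was higher, and their medians were 0.20 and 0.08.

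In the EEM 1.52% of all genes were lower and 2.29% higher in IVP. Of the epiblast markers there 1 of 4, LIN28B, was higher (1.10, SE 0.27, adjusted p = 0.0159). Of the hypoblast markers 1 of 9 was lower, TTR, which had at most 1 count in each IVP library. None of the 15 trophoblast and 5 mesenchyme markers tested was called, and the part of cell makeup in these values was not tested. Of the signals that induce the streak, 2 of 6 tested were lower. NODAL was lower in IVP (-2.48, SE 0.44, adjusted p = 0.00107) at a mean of 0.0751 CPM against 0.451 CPM, that is 3 to 5 counts against 9 to 32. BMP4 was lower too (-1.04, SE 0.30, adjusted p = 0.046), while 2 of 12 genes of nascent mesoderm were lower and 1, RSPO3, was higher. Of the readouts 2 of 9 were lower, LGR5 (-2.94, SE 0.50, adjusted p = 0.000676) and NKD1 (-1.47, SE 0.35, adjusted p = 0.0145), and of the axial genes 1 of 9, HHEX (-1.28, SE 0.36, adjusted p = 0.0444). LGR5 had 0 to 5 counts in the IVP and 11 to 41 in the IVV libraries. NODAL and LGR5 passed the filter on low counts through the IVV libraries, so that their direction was set by it. In the interaction test 2 of 17 genes of nascent mesoderm, KDR (-5.00, SE 0.86, adjusted p = 0.00541) and TBX6 (-2.51, SE 0.51, adjusted p = 0.0165), were called in the same direction as MIXL1 and WNT3. Of the readouts 1 of 12, LGR5, was called in the other (2.89, SE 0.69, adjusted p = 0.0484), a call made for 0.107% of all genes. None of the 11 inducing signals and none of the 11 axial genes tested was called. KDR had at most 3 counts in 3 IVP and 3 IVV EEM libraries, and LGR5 at most 5 in each IVP EEM library, so both values are uncertain. The mesenchyme marker THY1 (-3.51, SE 0.61, adjusted p = 0.00541) and the blood marker ITGB2 (-2.64, SE 0.62, adjusted p = 0.045) were called in the direction of MIXL1 too, and their part in the values of the factors was not tested. Without IVPF13 the calls of KDR (-4.69, adjusted p = 0.0411), TBX6 (-2.66, adjusted p = 0.0213) and THY1 (-3.74, adjusted p = 0.00539) were kept, and those of LGR5 (3.20, adjusted p = 0.0541) and ITGB2 (-2.61, adjusted p = 0.0886) were lost.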

How the data were processed

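Poly(A) RNA of ED and EEM was sequenced without strand information. The authors filtered reads with SOAPnuke, mapped them with STAR 2.7.0b on the ARS-UCD1.3 assembly and took gene-level counts from featureCounts (Subread 2.0.3); the submitters' processing notes also name FastQC 0.11.9 and Trimmomatic. The deposited values are raw counts per gene. Symbols for 31630 Entrez IDs came from RefSeq of ARS-UCD2.0, whose positions served only to look for overlapping gene models; no sequence is printed.

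Groups were taken from the labels. Counts were tested with edgeR 4.0.16 in R 4.3.3 (TMM, filterByExpr with at least 10 counts, Benjamini-Hochberg adjustment over all genes at 0.05), with 1 surrogate variable (sva 3.50.0) for IVP against IVV and with embryo as a block for ED against EEM and the interaction. The study used DESeq2 with sva, and DESeq2 1.42.0 and limma 3.58.1 were alternatives. SE is the log2 fold change over the square root of F. CPM in the text come from 1 TMM scale over 30 libraries; log2 CPM has a prior count of 2. Limits at 0 take 3 counts per library, and they and the interval of the FOXF2 count ratio cover counting error only; intervals of fitted fold changes come from the SE. Even small counts outnumbered odd ones (19289 entries of 2, 15257 of 1), so halved counts were an alternative. Scripts were tested on simulated data.

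The tissues of an embryo share its title, and their deviations correlated over 0.1 in 12 of 13 embryos (-0.19 to 0.64), so embryos were paired. Nothing in the labels ties embryos to cows. The 10 factors and all lists were chosen with earlier results of these data known. All 10 factors are named; other lists give at most the 4 genes with the smallest p, and values of NODAL and XIST, and the POU5F1 and NANOG covariate, were chosen after values were seen.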

Additional observations from a re-analysis of the deposited data

Results flagged for a closer look

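In 36 groups of 6 to 9 libraries with unequal values, the gap between the highest or lowest library and its neighbour was set against the range with Dixon's test on log2 CPM; 3 passed its critical value, and chance gives about 1 in 20. LHX1 was lowest in the disc of IVP10 (17 counts, 0.315 CPM, ratio of gap to range 0.619 against a critical value of 0.568), the IVP disc with the lowest mean log2 CPM of POU5F1 and NANOG (2.98); the part of this in the LHX1 value was not tested. GSC in the EEM of IVV embryos had 4 counts in VE4 and 0 in the other libraries (ratio 1.0), and FOXF2 in the EEM of IVP embryos had 1 count in IVPF13 and 0 in the others (ratio 1.0), both too few to read.

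The difference between IVP and IVV embryos was unequal in the ED and EEM for MIXL1 (interaction -2.45 on the log2 scale, SE 0.44, adjusted p = 0.00744) and WNT3 (-2.69, SE 0.62, adjusted p = 0.042), by edgeR's test of the interaction over 13 embryos. MIXL1 was called with any 1 embryo left out (13 of 13), with an adjusted p of at most 0.0287. WNT3 was called in 4 of 13 such fits, with an adjusted p between 0.0119 and 0.115.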

How the results depend on the processing

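In the discs 7 factors were called lower, and 7 to 9 under every alternative fixed at the start, leaving out 1 embryo included (7 to 9); GSC and SP5 were those added, and EOMES was lost with the embryos that gave both tissues alone (-1.79, adjusted p = 0.0506). With POU5F1 and NANOG as a covariate, added after the data were seen, 3 were, and the sign changed for EOMES (0.00), SP5 (0.02) and LHX1 (1.04); the cause was not tested. FOXF2 was called in all of these, with its direction set by the filter on low counts wherever that was used. Over all genes 778 were lower in the discs, against 1388 without the filter on low counts, in which more genes were tested, 184 with that covariate, and 510, 499 and 506 without VE28, VE29 or VE5. Genes called higher in the IVP discs went from 220 to 53 with XIST as a covariate, 411 with DESeq2 and 458 without the filter. In the EEM no factor was called, except 1 (FOXF2) without the filter. In that tissue MIXL1 changed sign to -0.16 with XIST as a covariate, and the genes called in either direction went from 561 to 1211 without the filter and to 145 with XIST. Of these, 224 were lower and 337 higher in the main fit, 192 and 184 without the surrogate variable, and 90 and 55 with XIST. For ED against EEM, 10 factors were higher, and 9 without the replicate block or with limma voom (FOXF2 lost); the block changed no other call of a factor there, but genes called lower in the ED went from 1692 to 145 without it (1030 to 1826 with an embryo left out). FOXF2 was also lost without VE28 or VE3 (highest adjusted p 0.0527). The interaction was called for 2 factors, and for 3 without the replicate block, with limma voom or with halved counts, 4 with DESeq2, 4 without the filter, and 1 to 4 when 1 embryo was left out; over all genes 154 were called in that direction, against 390 with DESeq2, 292 with limma voom, 304 without the filter and 87 to 193 with an embryo left out. Of the relations to TBXT, 5 passed by Pearson's r and 1 by Spearman's rho, and without the 2 discs farthest from the median 1 had an unadjusted permutation p under 0.05 (WNT3 in the IVP discs, r = -0.93 over 5 discs). Depth limits a library with 0 counts to at most 3 counts.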
